A study of Rattus norvegicus with 6 samples.

Results

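The respiratory chain and ATP synthase are the machinery by which mitochondria turn fuel into ATP. Complexes I and II pass electrons from NADH and succinate to ubiquinone, complex III passes them on to cytochrome c and complex IV to oxygen, and the proton gradient that complexes I, III and IV build drives ATP synthase, complex V. Most subunits are encoded in the nucleus and imported, while a small catalytic set is encoded in mitochondrial DNA (mtDNA). In spinal cord the demand for ATP is high in neurons, whose ion pumps and synapses depend on it.

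Members were every probe set (a group of short probes for 1 transcript) whose single annotated gene symbol began with Nduf, Sdh, Uqcr, Atp5, Cyc1, Cycs or Cox and a digit. This gave 102 of the 8799 probe sets on the array, for 56 of the 4736 genes that its annotation names singly. A further 7 probe sets whose annotation joins such a symbol to other genes were left out, and the mitochondrial genes, which the annotation spells COX1, COX2 and COX3, are described separately. Total RNA of rat spinal cord, taken near thoracic segment 8, was measured on 6 arrays. In 3 of them the tissue was the epicenter of a contusion (a blunt blow to the cord) at day 35, and in 3 it was the same position in uninjured animals. Strain, age, sex and a sham operation are not named in the labels, and the labels do not state that the arrays hold different animals. The p-values therefore cover array-to-array spread only, some of which may be technical. Values are signals, intensities on a linear scale. Median signals ran from 122 to 127 per array, and log2 signals of different arrays correlated at 0.958 to 0.977 within a group and at 0.91 to 0.932 between groups.

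A probe set was tested if its signal exceeded a floor of 61.6, the pooled 25th percentile, on at least 3 arrays, and 92 members for 54 genes were. Signals of different probe sets do not compare transcript levels, so each change below is of a probe set against itself. The 10 members not tested were both probe sets of Cox8b, the only one of the pseudogene Cox6c-ps1, and dim probe sets of Ndufab1, Ndufs4, Ndufaf3, Ndufa4l2 (2 of them) and Atp5if1 (2 of them).

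Some nuclear-encoded subunits were lower at the contusion epicenter, mostly by less than 2-fold, and none passed the threshold as higher. Of the 92 members tested, 34 (37%) fell and 0 rose past an adjusted p of 0.05 (limma), against 9.59% of all 6705 probe sets tested that were lower, 7.79% that were higher and 17.4% in either direction. At an unadjusted p of 0.05, 58 of the 92 members were lower and 1 was higher. Of all 6705 probe sets tested, 1090 were lower and 940 higher at that limit. The median log2 change was -0.43, or 1.35-fold lower, against -0.01 over all probe sets, and 82 members lay below 0 (50.6% of all). On all 3 contused arrays the signal was below that of all 3 uninjured arrays for 54 members, against 18.2% of all probe sets tested, and above for 2, against 16.6%. The 34 falls ran from 1.35-fold to 2.07-fold, with a median of 1.52-fold, and 1 of them reached 2-fold. They belonged to 27 genes: 16 of complex I, Sdha of complex II, 2 of complex III, 4 of complex IV, 3 of complex V and Ndufa4.

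**Figure D1:**
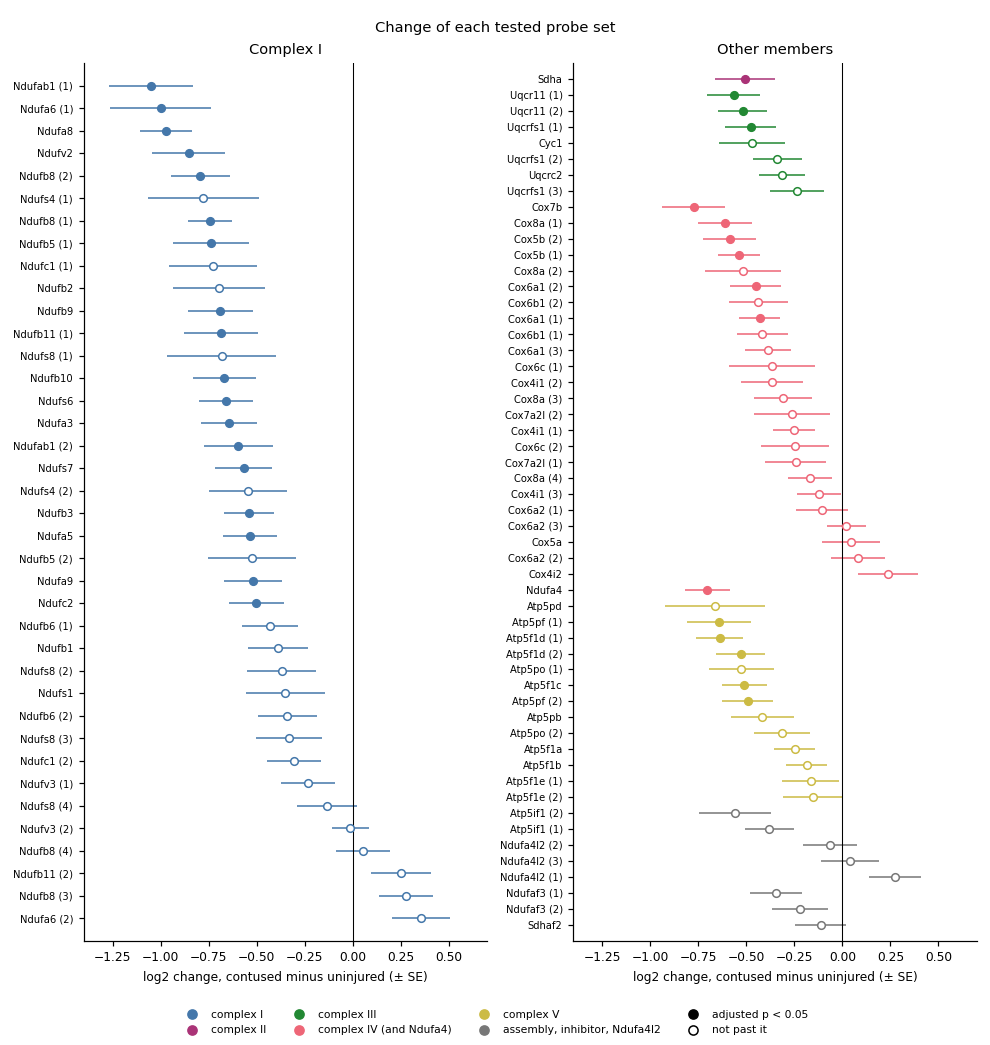
Log2 change (contused minus uninjured, point) with its standard error (bar) for each of the 92 tested probe sets, with complex I at left and the other members at right. Filled points passed an adjusted p of 0.05; all 34 lie left of 0, and the largest is Ndufab1 at -1.05. Numbers in brackets tell apart the probe sets of a gene.

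The number past the threshold depended on single arrays and on the filter, while the median did not change sign. With no filter on dim probe sets, 13 of 102 members were lower, against 4.53% of all probe sets. Leaving out a contused array gave 19 (array 1), 26 (array 2) or 43 (array 3), against 6.96%, 6.38% and 11.6% of all probe sets. Leaving out an uninjured array gave 19 (array 1), 13 (array 2) or 11 (array 3), against 8.44%, 6.7% and 5.71%. In each of these fits 0 members were higher. The median log2 change in these fits ran from -0.49 to -0.33. Of the 34 members, 11 passed in all 6 fits: Ndufa8, both bright probe sets of Ndufb8, Ndufab1, Ndufs6, Ndufv2, Ndufa3, Cox5b, Cox7b, Ndufa4 and Atp5f1d, each with 1 probe set where not stated.

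Promoters of the members were searched for sites of factors known to regulate nuclear genes of the respiratory chain. A part of such sites in the falls was not tested. RefSeq windows of the GRCr8 assembly, from 250 bases before to 50 after each start, were matched for 47 of the 56 genes. The motifs, searched on both strands, were GCGCATGCG for NRF1, CCGGAAG for GABP (also called NRF2) and AAGATGGC for YY1. CCGGAAG was found in 10 of 47 windows (21.3%), against 8.75% of all 33469 windows in the table, and AAGATGGC in 11 (23.4%) against 3.17%. The 33469 windows were not limited to genes on the array or matched to the members in expression. Counting only matches before the start, CCGGAAG was in 9 (19.1%) against 7.27%, and AAGATGGC in 1 (2.13%) against 1.63%. GCGCATGCG was found in 1 (2.13%), against 1.52%. Among the 23 matched genes with a probe set that fell, 4 held CCGGAAG and 8 held AAGATGGC. Among the 23 tested with no such probe set, the numbers were 6 and 3.

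The stretches shown are from members that fell, each printed 5′ to 3′ on the strand of the gene with the motif or its complement in capitals. For AAGATGGC they lie just after the annotated start and are short, and the letters hold ATGGC, so that a match there can include a start codon. Those of Ndufb8 (chr1:253362897-253362926, minus strand), Ndufs6 (chr1:31797412-31797441, plus strand), Ndufa6 (chr7:115750284-115750313, minus strand) and Ndufs7 (chr7:10110476-10110505, minus strand) are examples, 4 of the 8 genes that fell and hold it. The letters before the motif differ between these genes.
Ndufb8: cggagaaggtgAAGATGGCggcgtcccggg
Ndufs6: gggtcgtcggcAAGATGGCggcggcgctga
Ndufa6: gcttccttagcAAGATGGCggccgcggcca
Ndufs7: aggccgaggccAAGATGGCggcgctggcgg

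Of the genes that fell, 4 held CCGGAAG before the start: Ndufa6, at 190 bases and not printed, and Atp5pf (chr11:37375144-37375220, minus strand), Cox5b (chr9:46417788-46417836, plus strand) and Cox8a (chr1:213833639-213833715, minus strand, on the opposite strand of the gene). The last 3 are printed, since their matches lie nearer to the start, beginning 84, 14 and 57 bases before it. Cox8a holds a further match nearer to the start. Atp5pf also holds aagatggc upstream, within the stretch printed. A match is a run of letters and does not show that a factor binds.
Atp5pf: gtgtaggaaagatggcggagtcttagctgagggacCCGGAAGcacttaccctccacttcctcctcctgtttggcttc
Cox5b: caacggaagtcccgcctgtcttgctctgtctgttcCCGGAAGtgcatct
Cox8a: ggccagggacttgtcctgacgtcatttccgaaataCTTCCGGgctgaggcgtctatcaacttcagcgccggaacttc

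In bulk tissue, fewer cells of a type and less RNA per cell cannot be told apart. Signals of cell type markers differed between the groups. By gene, 20 of 25 tested neuron markers were lower and 0 higher, with a median log2 change of -1.06. Their summed signal was 12802 to 13709 on contused and 23733 to 28524 on uninjured arrays. Microglia and macrophage markers were higher in 16 of 18 genes and lower in 0 (median 1.32), with sums of 15136 to 16234 against 5533 to 6629. Oligodendrocyte and myelin markers were lower in 6 of 12 genes (sums of 16569 to 17453 against 20480 to 21680), and astrocyte markers higher in 4 of 14 (20629 to 23524 against 16903 to 18819). For vessel and blood cells, limma called 0 of 8 marker genes, and 1 was lower at an unadjusted p of 0.05. The part of these shifts in the falls described here was not tested.

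Complex I, the NADH dehydrogenase, supplied the largest number of falls. Of its 38 tested probe sets, for 24 genes, 18 (47.4%) were lower, against 9.59% of all tested, and 0 higher. The median log2 change was -0.54. The count was 4 with no filter on dim probe sets. It was 10, 11 and 23 without contused arrays 1, 2 and 3, 8 without uninjured array 1 or 2 and 7 without uninjured array 3. The 31 probe sets of accessory subunits, which surround the catalytic core, and of the acyl carrier protein included 16 of these falls (51.6%). The 7 of core subunits included 2 (28.6%), and the difference was not tested.

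Ndufa8, an accessory subunit on the intermembrane side, gave signals of 466, 479.8 and 565 on the contused arrays and 1064, 1017 and 884 on the uninjured arrays. The groups were far apart, and the fall was 1.96-fold (log2 change -0.97, SE 0.14, adjusted p = 0.00083). Ndufb8, an accessory subunit of the membrane arm and one of the 4 genes whose AAGATGGC stretch is printed above, read 824, 817 and 896 against 1341, 1503 and 1397 with its first probe set. That was a 1.67-fold fall with the 3 contused arrays close together. A second probe set read 799, 797 and 1149.8 against 1638, 1493 and 1560.1, where contused array 3 stood above the other contused arrays but below every uninjured array. Ndufab1, the mitochondrial acyl carrier protein, which also serves fatty acid synthesis, read 163, 245 and 319.8 against 451, 515 and 489. It fell 2.07-fold (SE of the log2 change 0.22), and its second tested probe set fell 1.51-fold.

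Of the core subunits that carry the redox centres, Ndufv2, which holds an iron-sulfur cluster of the NADH-oxidising arm, fell 1.81-fold. Its signals were 411, 576 and 703 after contusion and 1119, 974.7 and 899 in uninjured cord, and the groups did not overlap. Ndufs7, which holds the cluster next to the ubiquinone site, read 361, 485 and 494 against 686, 638 and 643 and fell 1.48-fold. Ndufs8, another iron-sulfur subunit, had 4 tested probe sets, with log2 changes of -0.68, -0.37, -0.33 and -0.13 and none past the threshold (adjusted p = 0.135 to 0.62). Groups overlapped in each of these 4. Ndufs1, the largest core subunit, had a log2 change of -0.35 on a dim probe set (96.0 ± 29.7 against 118.6 ± 9.29; SD, n = 3).

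Ndufs6, needed for a late step of assembly, read 495, 667 and 605 against 922, 979.5 and 873, a 1.58-fold fall. Ndufa3, a small membrane subunit, read 530.04, 741 and 661 against 969, 1048 and 977, a 1.56-fold fall. In both the first contused array was the lowest and no array crossed between groups. Ndufa6, an accessory subunit near the ubiquinone end, had the largest standard error among the falls, with signals of 139, 216 and 340.4 against 443, 439 and 420.2 (log2 change -1, SE 0.26, adjusted p = 0.0249). 

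Falls of 1.42-fold to 1.67-fold were also found for Ndufb3, Ndufb9, Ndufb10, Ndufa5, Ndufb5, Ndufb11, Ndufc2 and Ndufa9, all accessory subunits. Ndufb9 read 592, 805 and 941 against 1126, 1279 and 1302, and Ndufb5 read 229, 320.3 and 417 against 537, 526 and 503. In both the contused arrays spread more than the uninjured arrays. Ndufc2 read 773, 573 and 749 against 923, 1042 and 976, with contused array 2 the lowest. Without an effect past the threshold, but with every contused array below every uninjured array, stood Ndufc1 (log2 change -0.73, adjusted p = 0.0528), Ndufb6 (-0.43, adjusted p = 0.0685), Ndufb2 (-0.70) and Ndufb1 (-0.39). The second probe set of Ndufc1 (-0.31) did not overlap between groups either, while that of Ndufb6 (-0.34) did. Ndufs4, whose loss in mice gives a Leigh-like brain disease, had log2 changes of -0.78 and -0.55 with adjusted p of 0.0955 and 0.0957. Ndufv3 had changes of -0.23 and -0.01.

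The symbol Ndufa4 was first given to a complex I subunit, and the protein has since been assigned to complex IV. Its signals were 849, 796 and 947 against 1403, 1410.4 and 1393, a 1.63-fold fall (SE 0.12, adjusted p = 0.00237) with almost no spread among uninjured arrays. The 3 tested probe sets annotated as the related Ndufa4l2 had log2 changes of -0.06, 0.04 and 0.27, none past the threshold. Of proteins that help build the complexes without being part of them, Ndufaf3 of complex I had changes of -0.35 and -0.22 and Sdhaf2, which attaches the flavin to Sdha, -0.11 (95% interval -0.41 to 0.18), none past the threshold.

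Complex II was measured by its catalytic flavoprotein alone, Sdha, which also belongs to the citric acid cycle. Sdha read 539, 486 and 716 on the contused arrays and 789, 831 and 820.1 on the uninjured arrays, a 1.42-fold fall close to the threshold (log2 change -0.51, SE 0.16, adjusted p = 0.0478). Contused array 3 lay nearer to the uninjured arrays than arrays 1 and 2 did. The call was lost under 5 of 8 other settings of the processing (adjusted p = 0.0518 to 0.14) and without contused array 1 or 2 or any 1 uninjured array (up to 0.17).

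In complex III, the cytochrome bc complex, 3 of 7 probe sets (42.9%) were lower, against 9.59% of all tested, and 0 higher. The median log2 change was -0.47. The count was 1 without contused array 1, without uninjured array 1 or with no filter on dim probe sets, and 0 without uninjured array 2 or 3. It was 2 without contused array 2 and 4 without contused array 3. Uqcr11, a small accessory subunit, fell on both of its probe sets: from 1066, 1229 and 1059 to 792, 838 and 643, and from 769.9, 772 and 767 to 471, 573 and 573. These are falls of 1.48-fold and 1.43-fold. Uqcrfs1, the Rieske iron-sulfur protein, had 3 probe sets with log2 changes of -0.48, -0.34 and -0.24, and the first of them passed the threshold (a 1.39-fold fall, adjusted p = 0.0322). Cyc1, which carries the heme that hands electrons to cytochrome c, read 421, 576 and 689 against 769, 781 and 742 (log2 change -0.47, adjusted p = 0.0912). Uqcrc2, a core protein without a redox centre, had a change of -0.31 (adjusted p = 0.104). Both had every contused array below every uninjured array.

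In complex IV, cytochrome c oxidase, 6 of 24 probe sets of nuclear subunits (25%) were lower, against 9.59% of all tested, and 0 higher. The median log2 change was -0.34. The 6 belonged to Cox5b, Cox7b, Cox8a and Cox6a1. Counted by gene at the brightest probe set, 2 of 11 (18.2%) were lower, against 10% of all genes. The probe set count was 4, 9 and 5 without contused arrays 1, 2 and 3. It was 5 without uninjured array 1, 2 without uninjured array 2 or 3, and 3 with no filter on dim probe sets. Cox5b, a subunit on the matrix side, read 1007, 1042 and 1109 against 1579.8, 1480.04 and 1528, a 1.45-fold fall with tight groups, and its second probe set fell 1.5-fold. Cox7b, a small membrane subunit, read 386, 584 and 517 against 795, 891 and 825 and fell 1.71-fold. Cox6a1, the form of subunit VIa found outside heart and muscle, fell 1.37-fold on 1 bright probe set. A dim one read 62.8, 57.8 and 61.8 against 78.3, 87.6 and 85.3, at the floor of 61.6 on the contused arrays, and its 1.35-fold fall is from values set to that floor where below it. Its remaining probe set had a log2 change of -0.39 (adjusted p = 0.0508).

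Cox4i1, the common form of subunit IV, had 3 probe sets with log2 changes of -0.25, -0.36 and -0.12, none past the threshold (adjusted p = 0.155 or more). The last of them read 2311, 2751 and 2224 against 2547, 2716 and 2635, with the groups overlapping. Cox6c (-0.37 and -0.25), Cox6b1 (-0.42 and -0.44) and Cox7a2l, which links complexes into supercomplexes (-0.24 and -0.26), did not pass either. Cox5a, which binds next to subunit IV, was close to the floor and had a change of 0.04. Of the tissue forms none passed. Cox4i2, the lung form, read 296, 221 and 228 against 204, 199 and 224 (log2 change 0.24, adjusted p = 0.351), and the heart and muscle form Cox6a2 had changes of -0.11, 0.08 and 0.02. Skeletal muscle markers, a check for muscle in the dissected tissue, were lower in 3 of 15 genes (Myh1, Tnnc2 and Pvalb, the last of which neurons also express) and higher in 0. Their summed signal was 3535 to 3692 on contused and 3606 to 4712 on uninjured arrays, and its part in the values of Cox6a2 was not tested.

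In complex V, 5 of 13 probe sets (38.5%) were lower, against 9.59% of all tested, and 0 higher. The median log2 change was -0.49, and every one of the 13 lay below 0. The count was 3 without contused array 1 or 2, 8 without contused array 3, 2 without uninjured array 2 and 1 without uninjured array 3. The genes that fell were Atp5f1d, Atp5f1c and Atp5pf. Atp5f1d, the delta subunit of the central stalk, read 464, 464 and 469.6 against 701, 704 and 773 (1.56-fold, adjusted p = 0.00476), and its second probe set fell 1.44-fold. Atp5f1c, the gamma subunit that turns inside the catalytic head, read 764, 789 and 882 against 1123, 1192 and 1148 and fell 1.42-fold. Atp5pf, a coupling factor of the side stalk whose promoter stretch is printed above, read 291, 282 and 418 against 508, 502 and 514 (1.56-fold), with a second probe set 1.41-fold lower.

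Other subunits did not pass. Atp5f1b, the catalytic beta subunit, read 2023, 2113 and 1815 against 2202, 2243 and 2316 (log2 change -0.19, adjusted p = 0.278), and Atp5f1a, the alpha subunit, 1113, 1153 and 1213 against 1365, 1385 and 1381 (-0.25, adjusted p = 0.15). Neither pair of groups overlapped, though neither change passed the threshold. Atp5f1e, the epsilon subunit of the central stalk, had -0.16 and -0.15 with overlapping groups. Differences between subunits were not tested. Among side stalk subunits Atp5pd (-0.67), Atp5po (-0.53 and -0.32) and Atp5pb (-0.42) did not pass. Atp5if1, the inhibitor that stops ATP synthase from running backwards, had changes of -0.38 and -0.56 with adjusted p of 0.0636 and 0.0681.

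**Figure D2:**
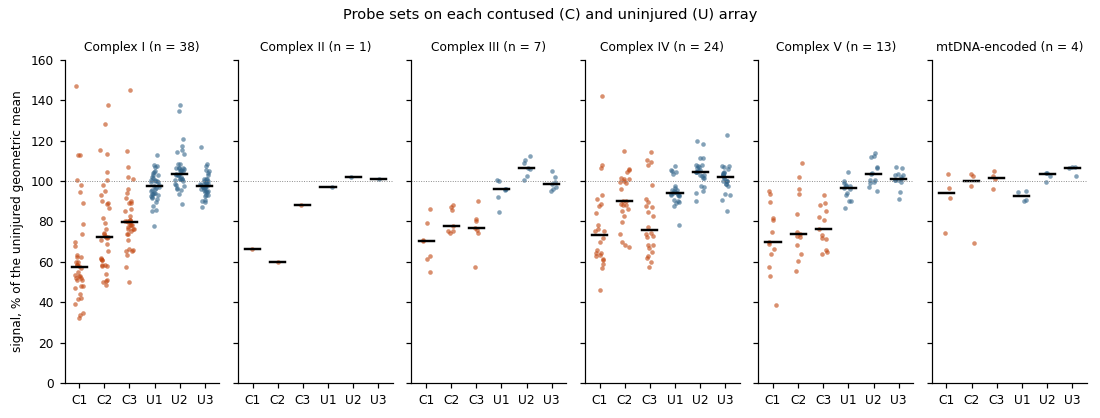
Signal of each tested probe set on each array as a percent of its geometric mean over the 3 uninjured arrays, by complex (points, with the median as a bar; C contused, U uninjured). The median of complex I lies at 57.4%, 72.5% and 79.6% on the 3 contused arrays, while that of the 4 mtDNA-encoded probe sets lies at 94.1%, 99.9% and 101.6%.

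The contused arrays were not alike, as the plot of signal on each array shows. The median member stood at 66% of its uninjured mean on contused array 1, at 80.3% on array 2 and at 79.8% on array 3. Contused array 1 was the lowest of the 3 for 58 of 92 members (63%), against 40% of all probe sets tested. Among the 34 members that fell it was the lowest for 24 (70.6%), against 42.9% of all 643 that fell. In complex I it was the lowest for 30 of 38, and in complex IV for 13 of 24. The median over all probe sets on that array was 98.9%.

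Of the 4 probe sets for mtDNA-encoded subunits of complex IV, 0 passed the threshold in limma, and 0 had an unadjusted p under 0.05. COX1, which holds the oxygen-reducing centre, read 5278, 5288 and 4895 against 4593, 5302 and 5472 on 1 probe set and 5373, 5416 and 5610.3 against 5274, 5706 and 5700.3 on the other. The log2 changes were 0.01 (95% interval -0.21 to 0.24) and -0.02 (-0.22 to 0.17). COX3 read 3698, 4139.96 and 4134 against 3657, 4196 and 4301 (-0.02, interval -0.25 to 0.21). These 3 intervals do not reach the -0.34 median of the nuclear probe sets of complex IV. That of COX3 does reach -0.25, the median of the 7 members with a mean signal over 2000, described below. COX2, which receives electrons from cytochrome c, read 2356, 2198 and 3319.9 against 2991, 3147 and 3382. Its log2 change was -0.30 (95% interval -0.63 to 0.04, adjusted p = 0.221), and this interval does reach -0.34. Without contused array 3, COX2 passed at -0.48 (adjusted p = 0.0134). The signs of the small COX1 and COX3 changes turned with the scaling. With the same trimmed mean on every array the second COX1 probe set had 0.02 and COX3 0.03, and with quantile normalization the first COX1 probe set had -0.06. The difference between mtDNA-encoded and nuclear members was not tested.

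The COX1 probe sets were the 6th and 7th brightest of the 8740 on the array, and COX3 and COX2 ranked 32 and 62. All nuclear members were dimmer than COX1 and COX3. The 7 members with a mean signal over 2000, a limit chosen after the values were seen, were probe sets of Cox4i1, Cox6a1, Cox8a and Atp5f1b. Their log2 changes ran from -0.45 to -0.12, and 1 of 7 passed, against 9 of all 139 tested probe sets above that signal (6.47%) that were lower. At the other end of the scale, 33 of 70 members with a mean signal over 264, the pooled 75th percentile, were lower, against 16.7% of all probe sets that bright. Of the 22 dimmer members 1 was lower, against 6.13% of the dimmer probe sets. All 10 members with a change above 0 were among these 22.

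**Figure D3:**
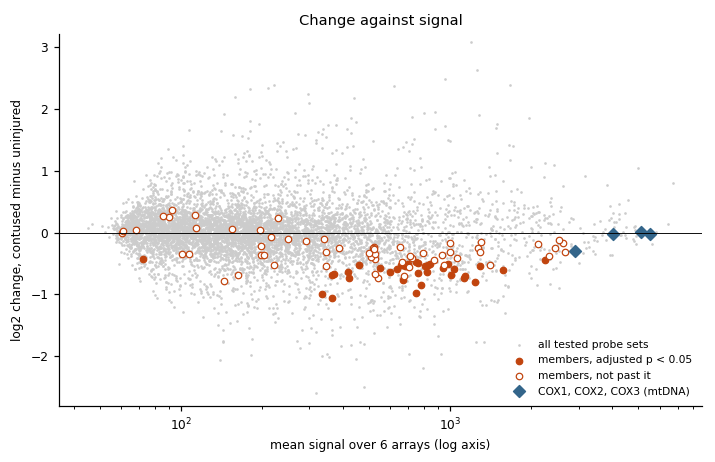
Log2 change (contused minus uninjured) against mean signal over the 6 arrays on a log axis, for the 92 members (circles, filled where adjusted p was under 0.05), the 4 mtDNA-encoded probe sets (diamonds) and all 6705 tested probe sets (grey). Filled circles lie mostly between signals of about 264 and 2000. The diamonds lie at the bright end, those of COX1 and COX3 near 0 and that of COX2 at -0.30.

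Probe sets of 1 gene did not always give the same result. Of 27 genes with over 1 tested probe set, 5 had every one of them past the threshold (Ndufab1, Uqcr11, Cox5b, Atp5f1d and Atp5pf), 7 had some (Ndufb8, Ndufa6, Ndufb5, Ndufb11, Uqcrfs1, Cox8a and Cox6a1) and 15 had none. No gene had probe sets past it in opposite directions. The dim second probe sets of Ndufa6, Ndufb8 and Ndufb11 had changes of 0.36, 0.28 and 0.25, none past the threshold. Cox8a, the common form of the smallest subunit, had 4 probe sets with changes of -0.61, -0.52, -0.31 and -0.17, of which the first passed (1167, 1509 and 1087 against 1764, 2037 and 1898). On all 4 the second contused array was the highest of its group. In Atp5po the order of the contused arrays turned with the probe set: 1168, 1375 and 940.2 on one and 588, 819.6 and 948 on the other, against 1397, 1433 and 1454 and 1158, 1057 and 1116 in uninjured cord.

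**Figure D4:**
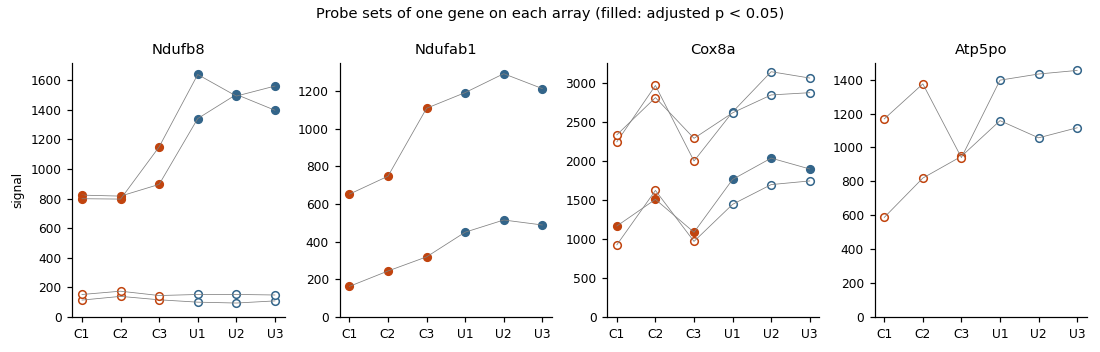
Signal of each tested probe set of Ndufb8, Ndufab1, Cox8a and Atp5po on each array (C contused, U uninjured), with thin lines joining the values of 1 probe set and filled points where its adjusted p was under 0.05. The bright probe sets of Ndufb8 separate the groups while its dim ones stay between 95 and 175, and the 2 of Atp5po order the contused arrays differently.

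Counted by gene, with each gene taken at its brightest tested probe set, 24 of 54 members were lower and 0 higher (median log2 change -0.50), against 10% of 3955 genes lower. The citric acid cycle feeds the chain, and its list held cycle enzymes, those of steps leading into it, and also Got1, Got2 and Mdh1. Of its 14 tested genes, 8 were lower and 0 higher (median -0.49). The 8, named after their values were seen, were Got1, Got2, Idh3g, Mdh1, Mdh2, Pc, Pdha1 and Pdhb. Cs, the citrate synthase gene, read 342, 304 and 339 against 390.3, 471 and 479.9 and just missed the threshold (adjusted p = 0.0551). Enzymes of glycolysis were lower in 5 of 15 and higher in 0 (median -0.28). The 5, named like the next 3 genes after their values were seen, were Pfkp, Pfkm, Pgk1, Pgam1 and Aldoa. Mitochondrial chaperones and proteases were lower in 1 of 8 (Dnaja3, log2 change -0.54). Of 2 tested assembly factors from a separate list 1 was lower (Tmem126b, -0.55), and of 2 regulators of mitochondrial gene expression 1 was higher (Esrra, a nuclear receptor, 1.03).

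A list of mitochondrial transport and ATP export genes, which holds carriers, pores, protein import genes and creatine kinases, was mixed. Of its 13 tested genes 3 were lower and 2 higher (median -0.19). Apart from Ckmt1, these were, named after their values were seen, Slc25a1 (-0.80) and the phosphate carrier Slc25a3 (-0.43) among the lower, and Tspo (1.31) and Ucp2 (0.78) among the higher. Ckmt1, the mitochondrial creatine kinase that passes on ATP in neurons and other cells, read 502, 369 and 499 against 992, 1093.5 and 1183, a fall of 2.4-fold (adjusted p = 0.00037). Slc25a4, the ADP/ATP carrier of excitable tissue, had a log2 change of -0.47 (adjusted p = 0.0733). Slc25a5, the carrier of most other tissues, read 945, 987 and 1058 against 1001, 1002 and 961 (log2 change 0.01, SE 0.11), and Vdac1, the pore of the outer membrane, had -0.29 (adjusted p = 0.234). Whether these lists differ from the respiratory chain was not tested.

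**Figure D5:**
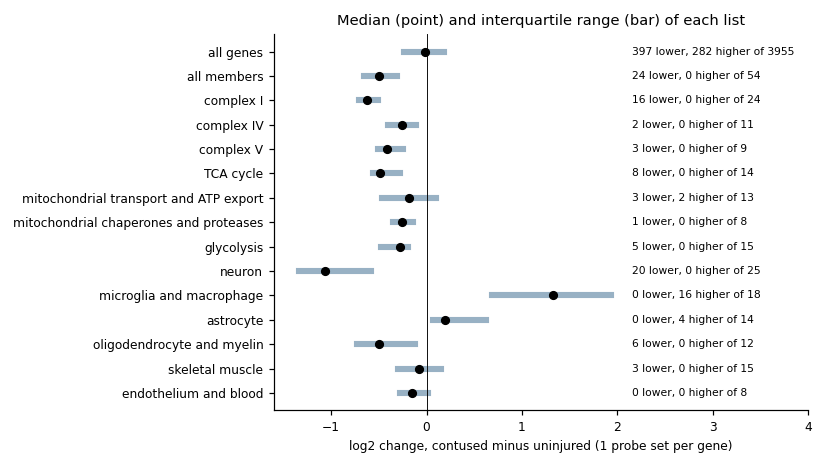
Median (point) and interquartile range (bar) of the log2 change, contused minus uninjured, over the genes of each set with at least 5 tested genes, 1 probe set per gene, with counts past an adjusted p of 0.05 at right. Members have a median of -0.50, between that of neuron markers at -1.06 and that of all genes at -0.02.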

How the data were processed

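RNA of 6 samples was measured on 1-colour rat arrays, and groups and replicate numbers came from the sample titles. The deposited table holds 1 intensity per probe set and array, read as linear from the values; probe summary, background and scaling by the authors are not given in the sources used here. Trimmed means (2% at each end) spread by 8.62% over arrays, so values were used as deposited. Gene symbols came from the array's probe annotation. The 59 control probe sets were left out. Values under 61.6 were set to that floor and transformed to log2. Of 8740 probe sets, 6705 lay above it on at least 3 of 6 arrays and entered a linear model (limma 3.58.1, R 4.3.3; lmFit and eBayes with an intensity trend, 4 residual degrees of freedom), two-sided, with Benjamini-Hochberg adjustment over all 6705 and a threshold of 0.05. The number of arrays limits the precision, and an exact permutation test of 3 against 3 cannot go below 0.1, so none was used. The linear model, without the floor and the filter, was tested on simulated arrays. Plots used Python 3.11.15 and matplotlib 3.10.9.

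Members and lists were chosen with earlier results of these data known. Values are named for all members past the threshold, the 3 of each complex with the smallest p, tissue isoforms and members with several probe sets. Other lists were counted by gene, at the tested probe set with the highest mean. Alternatives were 2 other scalings, 2 floors, 2 filters, no intensity trend, a replicate block, each array left out and 1 probe set per gene. No other columns were in the table.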

Additional observations from a re-analysis of the deposited data

How the results depend on the processing

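No member was past the threshold in the opposite direction under any alternative tried, and the median log2 change of the members stayed between -0.50 (1 probe set per gene) and -0.33 (without contused array 1). With no filter on dim probe sets, counts lower were 396 (266 higher) over all probe sets, 13 members, 4 in complex I, 0 in II, 1 in III and 3 in IV, and by gene 0 assembly factors, 0 chaperones and proteases and 1 glycolysis gene, with 1 astrocyte gene higher and the regulators' median at 0.049. Complex II (Sdha) had 0 lower with quantile normalization, the same trimmed mean, a floor of 16 or no intensity trend. Quantile normalization gave medians of -0.35 in complex III, -0.37 in V, -0.40 in the citric acid cycle list and 0.31 in astrocyte genes. The labels do not say whether replicate numbers pair the samples. Correlations of same-numbered deviations were 0.04, 0.22 and -0.24, which with 3 arrays per group cannot settle it. With the replicate block 44 members and 10 complex IV probe sets were lower. With 1 probe set per gene, 1 of 4 genes of complex III, 2 of 11 of IV and 3 of 9 of V were lower, against 10% of all genes. The median of V was -0.42. Setting the floor to the 50th percentile gave medians of 1.03 (regulators), -0.55 (assembly factors) and -0.19 (skeletal muscle), and above the floor on all 6 arrays -0.25 (vessel and blood).

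With 1 array left out, counts lower ran from 383 to 776 (276 to 484 higher) over all probe sets, 11 to 43 for members, 7 to 23 for complex I, 0 to 1 for II, 0 to 4 for III, 2 to 9 for IV and 1 to 8 for V. Medians ran from -0.50 to -0.30 in complex III and -0.50 to -0.33 in V. By gene, counts lower ran from 3 to 9 in the citric acid cycle list, 2 to 5 in transport and 0 to 1 in assembly factors. They ran from 0 to 2 in chaperones, 1 to 5 in glycolysis and 0 to 1 in vessel and blood. From 2 to 3 astrocyte genes were higher. Medians ran from -1.173 to -1.002 in neuron and -0.17 to -0.078 in vessel and blood genes. The cause of these shifts was not tested.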
